A study of Mus musculus with 10 samples.

Results

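A set of 10 genes that govern passage through the G1 phase of the cell cycle were examined in male mouse embryonic stem cells (mESCs). They were the rows of the deposited expression table named Ccnd1, Ccnd2, Ccnd3, Ccne1, Ccne2, Cdk2, Cdk4, Cdk6, Cdkn1b and Cdkn2c, 10 of 25965 rows, and all 10 were found. RNA-seq had been carried out on 10 libraries from C57/Bl6 male mESCs in 2i/LIF, a defined medium that holds the cells in the naive state. Cells were derived by the Keniry2022 method, split at passage 0 (p0) and kept to passage 10 (p10) and passage 20 (p20) either by Keniry2022, in suspension with daily passage, or by Mulas2019, attached to gelatin and passaged less often. There were 2 libraries, replicates 1 and 2, in each of the 5 groups p0, Keniry2022 p10, Keniry2022 p20, Mulas2019 p10 and Mulas2019 p20, and per the study each came from one of 2 independent lines. All cells were therefore derived by one method, no group lacks the inhibitors in the medium, and p20 by Keniry2022 is matched in days to p10 by Mulas2019. The study also measured how fast cells of each method doubled, so the question here is how the RNA of the G1 machinery differed between methods.

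D-type cyclins bind Cdk4 and Cdk6, and E-type cyclins bind Cdk2. The active kinases phosphorylate the retinoblastoma (RB) proteins, which releases E2F transcription factors and allows S phase genes to be expressed. CDK inhibitors oppose them: p27, the product of Cdkn1b, binds cyclin and kinase together, whereas p18, the product of Cdkn2c, belongs to the INK4 family and binds Cdk4 and Cdk6. mESCs are known for a short G1 phase. Much of this control acts on protein, which these data do not measure.

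Libraries held 24053995 to 30236822 reads, of which 85.4% to 88.2% were in features. All 10 ES cell markers examined, Pou5f1, Sox2 and Nanog among them, had a mean above 0 on the log2 RPKM scale (reads scaled to the length of the gene and the depth of the library). None of 7 fibroblast markers and none of 6 primitive endoderm markers did, 4 fibroblast markers (Col3a1, Dcn, Lum and Postn) had no reads in any library, and of 7 trophectoderm markers Eomes alone did. The summed level of the ES cell markers was 3950 to 5580 RPKM at p0, 3230 to 3460 under Keniry2022 and 2980 to 3160 under Mulas2019, and the summed trophectoderm level was 2.99 to 3.80 RPKM under Keniry2022 and 3.94 to 5.18 under Mulas2019. Their part in the differences below was not tested. The p0 replicates differed more than other replicate pairs (SD of the log2 difference across features 0.611, against 0.23 to 0.265). Reads of 4 Y-linked genes were few in replicate 1 (13 to 132) and many in replicate 2 (4578 to 8140) of every group but Keniry2022 p20, where replicate 1 had 6659 and replicate 2 had 48, so in that group the Y-linked reads go against the replicate numbers as names of the lines. The study reports that a line lost its Y chromosome while being derived, ahead of the cultures compared here. Each group, p0 included, held a library with few Y-linked reads and a library with many. Libraries with few such reads may come from that line, which was not tested, and male is used here as the study names the cells. The main comparisons use group means and no replicate number. The 4 libraries of a method are 2 lines at 2 passages, not 4 derivations, and the p-values measure only the spread between these samples.

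The levels of the 10 genes were first set in order. Per length, Cdk4 was highest in p0 (mean log2 RPKM 7.53), Keniry2022 (7.46) and Mulas2019 (7.23), followed by Ccnd3, and Ccnd2 was lowest in all 3 (-1.95, -1.10 and -1.78). Ccne1 and Cdk2 came next, with ranges that overlapped in each of the 3 sets of libraries, followed by Ccnd1, Ccne2, Cdkn1b, Cdk6 and Cdkn2c. Ccne2 lay above Cdkn1b in 4 of 4 Keniry2022 libraries, by 0.63 log2 units on average, and in 3 of 4 Mulas2019 libraries, by 0.06. Ccnd3 therefore made up most D-type cyclin RNA, 83.5% to 91.3% of the summed RPKM of the 3 genes. Ccnd1 contributed 8.62% to 16.3% and Ccnd2 0.0859% to 0.343%. Ccne1 made up 74.3% to 81.3% of E-type cyclin RNA and Cdk4 97.1% to 98.6% of the RNA of Cdk4 and Cdk6. These shares and the order depend on the gene lengths behind the deposited values. The lengths recovered were 2113 bases for Ccnd3, 3835 for Ccnd1 and 3735 for Cdk6, against 8775, 4709 and 13989 exon bases in GENCODE.

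**Figure D1:**
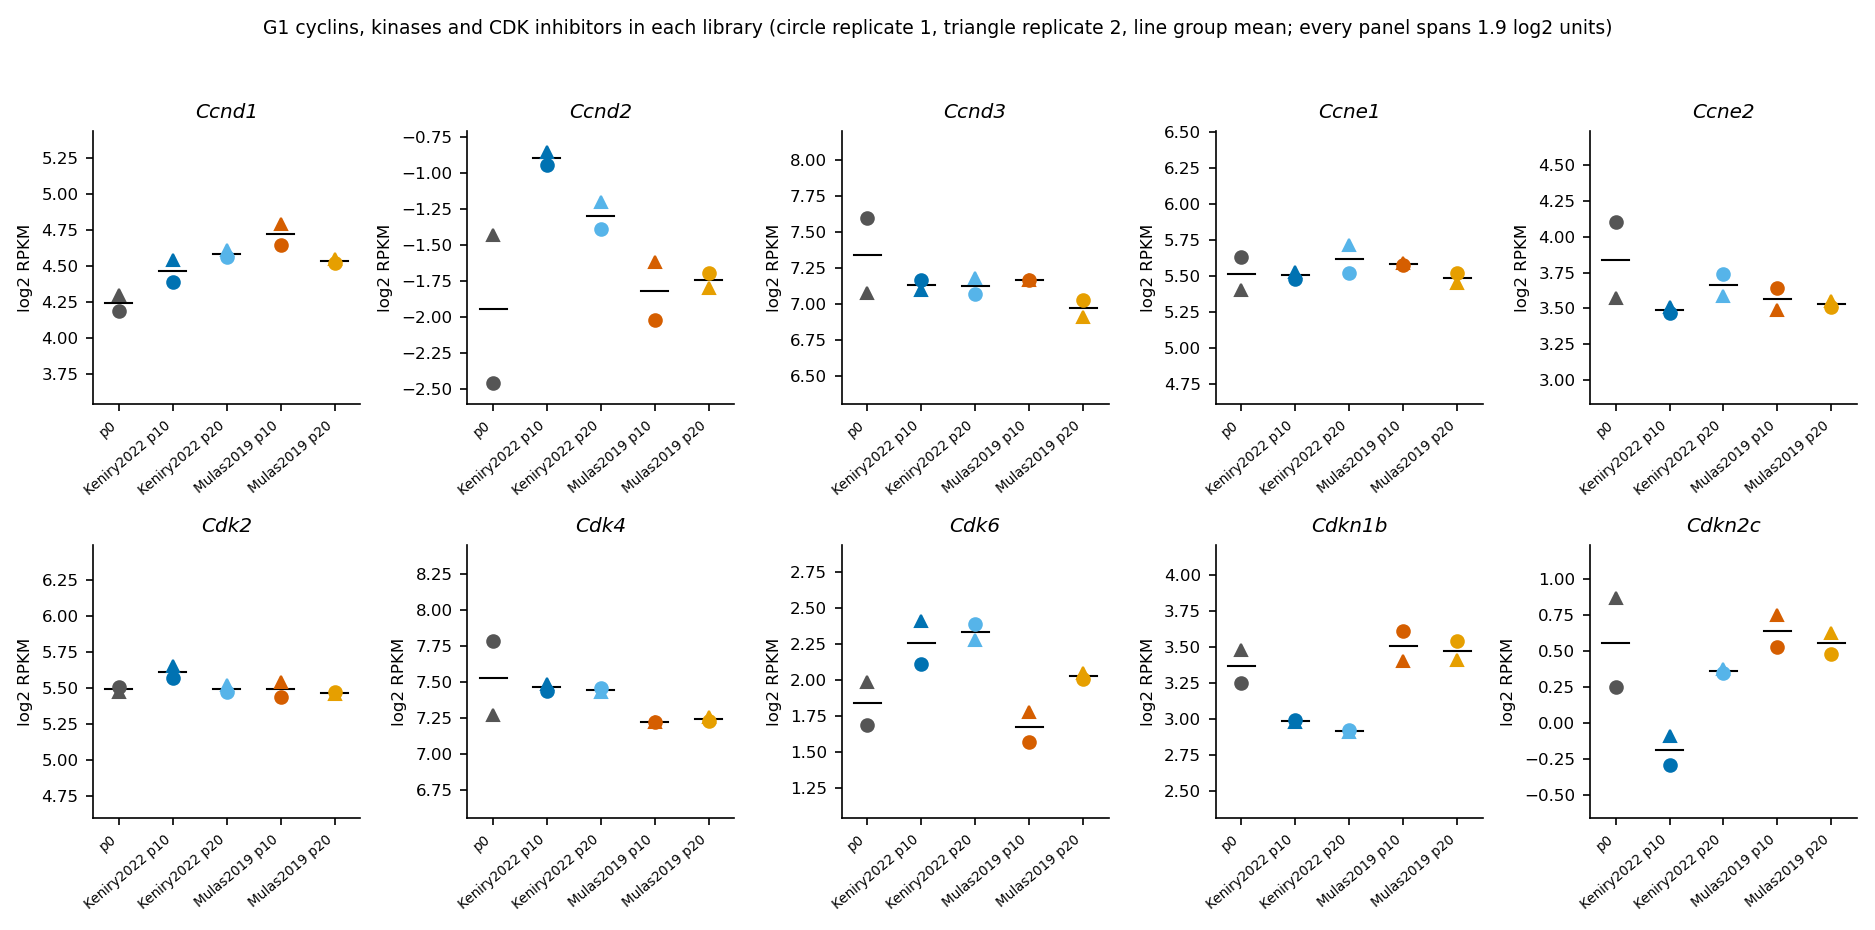
Level of each gene in every library (y axis, log2 RPKM; each panel spans 1.9 log2 units) by group (x axis), with a circle for replicate 1, a triangle for replicate 2 and a line at the group mean. Cdkn1b sat between 2.91 and 2.99 in the 4 Keniry2022 libraries and between 3.40 and 3.61 in the 4 Mulas2019 libraries, whereas the 2 methods overlapped for Ccnd1, Ccnd3, Ccne1, Ccne2 and Cdk2.

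To ask whether the machinery differed between methods, the 4 Keniry2022 libraries were compared with the 4 Mulas2019 libraries. Of the 10 genes, 9 passed the filter on low values and 4 of these were called, with Cdk4 and Cdk6 higher and Cdkn1b and Cdkn2c lower under Keniry2022. Ccnd1, Ccnd3, Ccne1, Ccne2 and Cdk2 did not pass the test, and Ccnd2 was too low to be tested with the rest. Across all 11654 features tested, 51.5% were called, 25.9% higher and 25.5% lower under Keniry2022, so 4 of 9 is near the background and is not a result about these genes as a group. The median log2 difference was 0.03 over the 9 genes and -0.00 over all features. The values of the methods did not overlap for the 4 called genes, as for 46.5% of all features tested. In bulk RNA, a change in the number of cells that express a gene and a change in the RNA per cell cannot be told apart.

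Cdkn1b (chromosome 6, 134920401 to 134925513, plus strand, mm10) encodes p27. Its level in log2 RPKM was 2.99 and 2.98 in Keniry2022 p10, 2.92 and 2.91 in Keniry2022 p20, 3.61 and 3.40 in Mulas2019 p10, 3.54 and 3.41 in Mulas2019 p20, and 3.25 and 3.48 at p0 (replicates 1 and 2). All 4 Keniry2022 libraries lay below all other libraries, and the lowest held 967 reads of the gene. The mean was 2.95 ± 0.04 under Keniry2022 and 3.49 ± 0.0997 under Mulas2019 (SD, n = 4), a log2 difference of -0.54 ± 0.06 (SE), or 0.687-fold (limma, adjusted p = 8.39e-05). It was called under all 20 alternatives, with differences from -0.58 to -0.49. The exact permutation test of the 4 values against 4 gave p = 0.0286, the smallest it allows (two-sided). By size, 91.6% of tested features had a smaller absolute difference.

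Cdkn2c (chromosome 4, 109660876 to 109667189, minus strand) encodes p18. It was -0.29 and -0.09 in Keniry2022 p10, 0.35 and 0.38 in Keniry2022 p20, 0.53 and 0.75 in Mulas2019 p10, 0.48 and 0.63 in Mulas2019 p20, and 0.25 and 0.87 at p0, in log2 RPKM. The Keniry2022 p10 libraries were the lowest of all 10, and the other Keniry2022 libraries lay just below the Mulas2019 range and between the p0 replicates. The gene had 62 to 137 reads per library, and the smallest count allows 47.5 to 79.5 reads by counting error alone (exact Poisson 95% interval). The means were 0.09 ± 0.332 and 0.60 ± 0.12 (SD, n = 4) and the log2 difference was -0.51 ± 0.16 (adjusted p = 0.0236, limma; exact permutation p = 0.0286). The call was lost without replicate 1 of Keniry2022 p10 (-0.38, adjusted p = 0.0575), without its replicate 2 (-0.45, adjusted p = 0.0629) and without replicate 2 of Mulas2019 p10 (-0.46, adjusted p = 0.0651). It was also lost under quantile normalisation (-0.30, adjusted p = 0.161), with no filter (adjusted p = 0.0544) and in the model of 5 groups (adjusted p = 0.0551).

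The kinase Cdk4 (chromosome 10, 127063534 to 127067920, plus strand) was 7.44 and 7.49 in Keniry2022 p10, 7.46 and 7.43 in Keniry2022 p20, 7.22 and 7.22 in Mulas2019 p10, 7.23 and 7.26 in Mulas2019 p20, and 7.79 and 7.27 at p0, in log2 RPKM. The methods separated with little spread, and the p0 replicates lay on either side of the Keniry2022 values. The means were 7.46 ± 0.0279 under Keniry2022 and 7.23 ± 0.0229 under Mulas2019 (SD, n = 4), and the log2 difference was 0.22 ± 0.03 (adjusted p = 0.000264, limma; exact permutation p = 0.0286). Under quantile normalisation it was 0.06 (adjusted p = 0.132), and in the model of 5 groups 0.22 with adjusted p = 0.165, and it was called under the other 18 of 20 alternatives. The exons of Tspan31 on the opposite strand cover 19.7% of the exon bases of Cdk4. The level of Tspan31 was 5.33 ± 0.0271 and 5.31 ± 0.0179 log2 RPKM (SD, n = 4), a difference of 0.02 (adjusted p = 0.664, limma).

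Cdk6 (chromosome 5, 3343893 to 3523218, plus strand) encodes the other partner of the D-type cyclins. It was 2.11 and 2.41 in Keniry2022 p10, 2.39 and 2.28 in Keniry2022 p20, 1.57 and 1.78 in Mulas2019 p10, 2.01 and 2.05 in Mulas2019 p20, and 1.69 and 1.99 at p0, in log2 RPKM. All Keniry2022 libraries exceeded all others, although replicate 1 of Keniry2022 p10 was only 0.06 above the nearest Mulas2019 library. The log2 difference was 0.45 ± 0.11 (1.36-fold, adjusted p = 0.00753, limma; exact permutation p = 0.0286) and it was called under all 20 alternatives (0.35 to 0.54). Gm17590, an antisense gene whose exons cover 2.6% of those of Cdk6, moved in the same direction, from 1.68 ± 0.327 under Mulas2019 to 2.51 ± 0.313 under Keniry2022 (SD, n = 4; difference 0.84, adjusted p = 0.00356, limma). The strand setting of the counts is not given in the sources used here, and the part of Gm17590 in the Cdk6 value was not tested.

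The promoters of the 4 called genes are shown to place them side by side, as RefSeq gives them on GRCm38.p6, 250 bases before to 50 after the start, with the letters CACGTG in capitals. CACGTG, read on both strands, is the E-box that MYC and other basic helix-loop-helix factors can bind, and 7.15% of the 32851 promoters in the table hold it.
Cdk4, chr10:127063285-127063584, plus strand: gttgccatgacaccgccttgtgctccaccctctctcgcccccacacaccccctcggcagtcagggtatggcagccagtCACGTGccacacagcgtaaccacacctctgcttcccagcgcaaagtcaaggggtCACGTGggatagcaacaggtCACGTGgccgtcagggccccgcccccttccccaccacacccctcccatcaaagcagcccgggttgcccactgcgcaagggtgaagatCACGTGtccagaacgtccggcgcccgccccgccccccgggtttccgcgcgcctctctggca
Cdk6, chr5:3343643-3343942, plus strand: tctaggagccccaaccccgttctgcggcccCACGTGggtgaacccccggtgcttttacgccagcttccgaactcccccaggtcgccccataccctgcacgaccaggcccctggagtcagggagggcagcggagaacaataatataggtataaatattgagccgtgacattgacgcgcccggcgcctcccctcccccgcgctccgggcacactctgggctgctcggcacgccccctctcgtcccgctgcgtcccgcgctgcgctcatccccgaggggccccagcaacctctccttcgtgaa
Cdkn1b, chr6:134920151-134920450, plus strand: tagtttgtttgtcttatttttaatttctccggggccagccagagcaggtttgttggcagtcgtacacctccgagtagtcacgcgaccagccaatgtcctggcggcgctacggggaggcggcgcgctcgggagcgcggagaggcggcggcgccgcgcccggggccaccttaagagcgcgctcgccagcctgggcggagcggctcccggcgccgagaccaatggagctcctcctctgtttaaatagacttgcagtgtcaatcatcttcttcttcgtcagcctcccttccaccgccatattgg
Cdkn2c, chr4:109666707-109667006, minus strand: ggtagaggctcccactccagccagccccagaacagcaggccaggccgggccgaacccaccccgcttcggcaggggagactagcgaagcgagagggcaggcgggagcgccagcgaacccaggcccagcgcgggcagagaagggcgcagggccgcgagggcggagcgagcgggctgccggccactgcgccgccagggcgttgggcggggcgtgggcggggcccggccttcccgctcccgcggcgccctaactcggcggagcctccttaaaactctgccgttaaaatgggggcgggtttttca
Cdkn2c, chr4:109665323-109665622, minus strand: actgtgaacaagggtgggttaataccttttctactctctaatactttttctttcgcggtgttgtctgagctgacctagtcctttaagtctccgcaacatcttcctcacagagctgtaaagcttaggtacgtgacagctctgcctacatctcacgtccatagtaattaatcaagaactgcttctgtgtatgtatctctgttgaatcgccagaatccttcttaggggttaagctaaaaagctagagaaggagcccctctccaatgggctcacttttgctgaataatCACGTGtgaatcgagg
The Cdk4 window holds 4 matches and the Cdk6 window 1. Cdkn1b has none, and of its 2 listed starts Cdkn2c has 1 match at the downstream start. The E2F forms TTTCCCGC, TTTCGCGC, TTTGCCGC and TTTGGCGC, read on both strands, were in 2.26% of all promoters and in none of these 5 windows. Among the members they were found only in Cdk2, of the 7 members with a promoter in the table. The FOXO motif GTAAACA (3.65% of promoters, both strands) was absent from the 5 windows and present at 1 of the 2 starts of Ccnd3. The GC box GGGCGG (35.7% of promoters) was in the Cdk4 and Cdkn1b windows and at the upstream start of Cdkn2c, and CCAAT (37.4%) was in the Cdkn1b window and at the downstream start of Cdkn2c, again on both strands. These are matches of letters, with no binding data behind them.

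Among the D-type cyclins, Ccnd1 (chromosome 7, 144929931 to 144939869, minus strand) was 4.39 to 4.61 log2 RPKM under Keniry2022 and 4.52 to 4.79 under Mulas2019. These ranges overlap, with a log2 difference of -0.10 and a 95% interval from -0.25 to 0.05 (adjusted p = 0.227, limma). Ccnd3 (chromosome 17, 47505051 to 47599683, plus strand) was 7.07 to 7.18 and 6.91 to 7.17, a difference of 0.06 (-0.07 to 0.19, adjusted p = 0.397). Ccnd2 (chromosome 6, 127125779 to 127151048, minus strand) had 25 to 91 reads per library and log2 values of -0.94, -0.85, -1.39 and -1.20 under Keniry2022 against -2.02, -1.62, -1.69 and -1.80 under Mulas2019. These did not overlap (exact permutation p = 0.0286), and with no filter the log2 difference was 0.69 ± 0.15 (adjusted p = 0.0115, limma). At 0.472 ± 0.0784 against 0.292 ± 0.0344 RPKM (SD, n = 4), Ccnd2 stayed far below the other D-type cyclins in both methods. For Ccnd1, 23.4% of exon bases overlap a gene on the opposite strand, named LTO1 in the annotation and Oraov1 in the deposited table. The row named Ccnd1 has the coordinates of Ccnd1 but the gene identifier of Oraov1 beside it, and was taken by its name and coordinates.

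E-type cyclins and their kinase Cdk2 had the smallest differences together with Ccnd3. Ccne1 (chromosome 7, 38097984 to 38107534, minus strand) was 5.57 ± 0.104 log2 RPKM under Keniry2022 and 5.54 ± 0.0638 under Mulas2019 (SD, n = 4), with a difference of 0.03 (95% interval -0.09 to 0.15). Ccne2 (chromosome 4, 11191351 to 11204779, plus strand) was 3.58 ± 0.122 and 3.55 ± 0.0672, with a difference of 0.03 (-0.11 to 0.17). Cdk2 (chromosome 10, 128697939 to 128705051, minus strand) was 5.55 ± 0.0753 and 5.48 ± 0.0442, with a difference of 0.07 (-0.02 to 0.17). The intervals leave room for differences of up to 0.17 log2 units in these 3 genes. Under quantile normalisation the sign of Ccne1, Cdk2 and Ccnd3 turned, without a call in either fit.

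**Figure D2:**
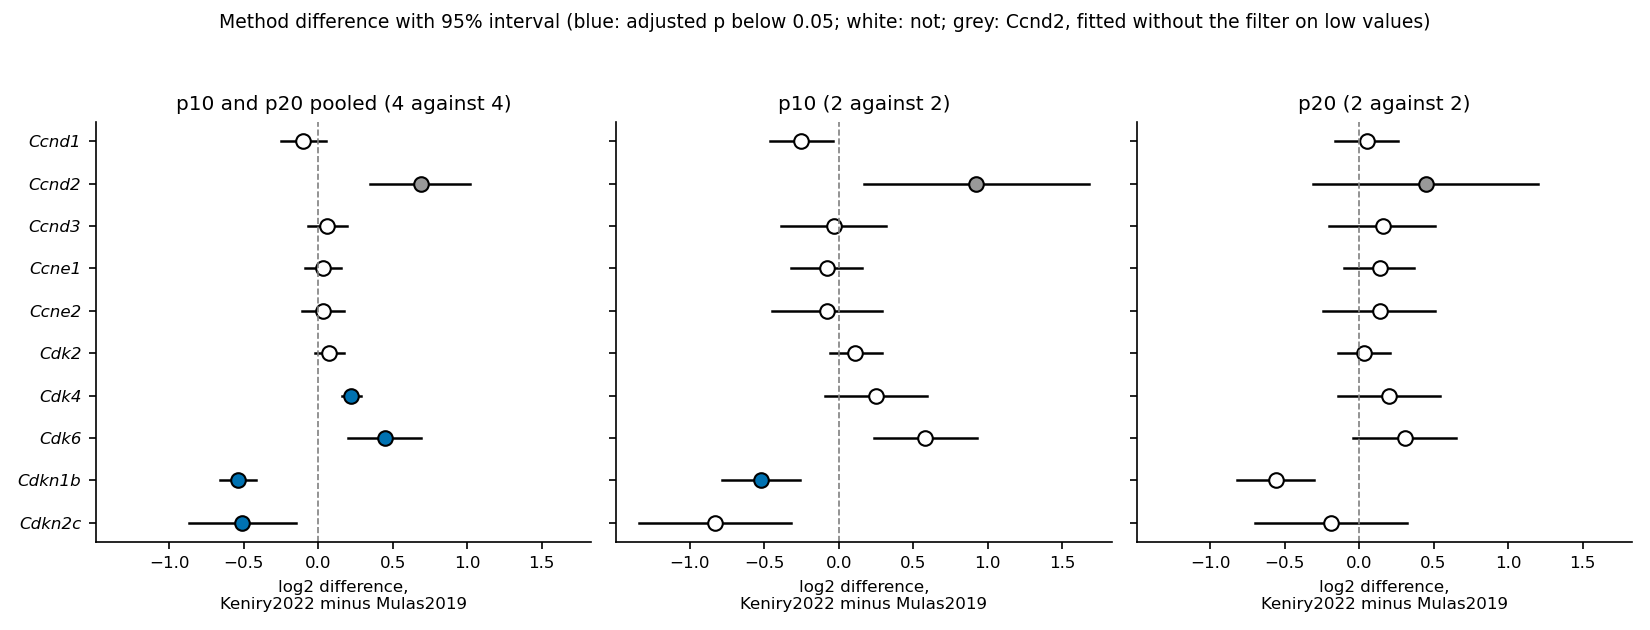
Log2 difference of Keniry2022 minus Mulas2019 (x axis) for each gene (y axis), with its 95% interval, for the pooled libraries, p10 and p20; blue marks adjusted p under 0.05, white the rest, and grey Ccnd2, which was fitted without the filter. Pooled differences ran from -0.54 for Cdkn1b to 0.69 for Ccnd2, and at p20 no gene passed the test.

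Kinase and inhibitor levels were also set against each other within libraries, as a description with no test. Cdk4 RNA per length was 21.9 to 23.3 times that of Cdkn1b in the Keniry2022 libraries and 12.2 to 14.5 times in the Mulas2019 libraries. Cdk2 was 5.86 to 6.37 times Cdkn1b under Keniry2022 and 3.58 to 4.41 times under Mulas2019. Cdk6 was 3.74 to 5.63 and 2.04 to 2.88 times Cdkn2c. The ranges of the methods did not overlap in these 3 ratios. At p0, Cdk4 was 23.2 times Cdkn1b in replicate 1 and 13.9 times in replicate 2, within the range of each method in turn. Cdk2 was 3.97 to 4.81 times Cdkn1b at p0, below all Keniry2022 libraries, and Cdk6 was 2.17 to 2.71 times Cdkn2c, inside the Mulas2019 range.

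To see whether the differences held at each passage, groups were compared in a model of all 10 libraries (11561 features tested). At p10, 1 of the 9 tested genes was called, Cdkn1b (-0.52 ± 0.11, adjusted p = 0.0314, limma), where 8.53% of all features were. This call was lost with no filter (adjusted p = 0.0518) and with the replicate block (adjusted p = 0.051, limma), under which Cdkn2c gained one (adjusted p = 0.0478). Cdk6 (0.58 ± 0.15, adjusted p = 0.0525) and Cdkn2c (-0.83 ± 0.22, adjusted p = 0.0571) did not pass in the main fit. At p20 none of the 9 was called, where 2.15% of features were. Cdkn1b was again -0.56 ± 0.11 (adjusted p = 0.0504) and was the only one with an unadjusted p below 0.05 by limma, and voom called it. Cdkn2c was -0.19 ± 0.22 at p20. With Keniry2022 p20 set against Mulas2019 p10 to match days in culture, Cdkn1b (-0.59 ± 0.11, adjusted p = 0.0273) and Cdk6 (0.66 ± 0.15, adjusted p = 0.043) were called, where 6.43% of features were.

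The number of calls in these 3 comparisons changed with the libraries in the fit, and the cause was not tested. Leaving out a cultured library could also move the difference itself, which ran from -0.62 to -0.42 for Cdkn1b at p10. At p10 the count was 5 of 9 without either p0 library, with Ccnd1, Cdk4, Cdk6 and Cdkn2c beside Cdkn1b. It was 0 without each of the 8 cultured libraries in turn. The same held for days in culture, with 3 calls without either p0 library and 0 without any one of the 8 others. At p20 it was 2 without either p0 library and 0 otherwise. In these fits the difference of Cdkn1b for matched days stayed between -0.69 and -0.49.

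No feature was called for p20 against p10 under Keniry2022, under Mulas2019, or for the interaction of method and passage (0.0% of 11561 features each, limma). Unadjusted p was below 0.05 for 289, 772 and 405 features, and voom called 0, 1 and 0. Among the members, the mean of Cdkn2c was 0.56 ± 0.22 higher at p20 than at p10 of Keniry2022 (unadjusted p = 0.0364, adjusted p = 1.0, limma). For Cdk6 under Mulas2019 the same contrast was 0.35 ± 0.15 (unadjusted p = 0.0461, adjusted p = 0.729, limma). The method difference of Cdkn2c was -0.83 at p10 and -0.19 at p20, smaller in size at p20, and the interaction was 0.64 ± 0.31 (adjusted p = 1.0), so a change of the method difference with passage was not detectable.

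To ask which method departed from the starting cells, both were compared with the same 2 p0 libraries. Under Keniry2022 0 of 9 genes were called, where 0.727% of features were. Ccnd1, Cdk6, Cdkn1b and Cdkn2c had unadjusted p below 0.05 (limma), and voom called none. Under Mulas2019 Ccnd1 was called (0.38 ± 0.08, adjusted p = 0.0114, limma), where 44.1% of features were. Ccnd1 was 4.19 and 4.30 at p0 and lay above both in 4 of 4 libraries of each method. Its difference from p0 was 0.28 ± 0.08 under Keniry2022 (adjusted p = 0.0844), and it was lost under Mulas2019 with library quality weights (adjusted p = 0.359).

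Cdkn1b lay below both p0 libraries in 4 of 4 Keniry2022 libraries, with a difference of -0.42 ± 0.10 (adjusted p = 0.0697, limma), and was 0.13 ± 0.10 from p0 under Mulas2019 (adjusted p = 0.308). Cdk6 lay above both p0 libraries in 4 of 4 Keniry2022 libraries (0.46 ± 0.13, adjusted p = 0.084) and in 2 of 4 Mulas2019 libraries (0.01 ± 0.13). Cdk4 lay below both in 4 of 4 Mulas2019 libraries (-0.30 ± 0.13, adjusted p = 0.0886) and in none of the Keniry2022 libraries (-0.08 ± 0.13).

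The p0 replicates differed by 0.52 for Ccnd3, 0.53 for Ccne2 and 0.51 for Cdk4, with replicate 1 higher, and by -1.02 for Ccnd2. Cdk4 also changed sign against p0 under quantile normalisation, in both methods. Without p0 replicate 1, 3 genes were called under Keniry2022 (Cdk4 0.18, Cdkn1b -0.53 and Cdkn2c -0.79), and without p0 replicate 2, 6 were (Ccnd1 0.33, Ccnd3 -0.47, Ccne2 -0.52, Cdk4 -0.33, Cdk6 0.61 and Cdkn1b -0.30). Cdk4 thus changed sign with the p0 library, with adjusted p = 0.0434 and 0.000172 (limma). Under Mulas2019, 5 genes were called without p0 replicate 2, namely Ccnd1, Ccnd3 (-0.53), Ccne2 (-0.55), Cdk4 (-0.56) and Cdkn1b (0.24).

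**Figure D3:**
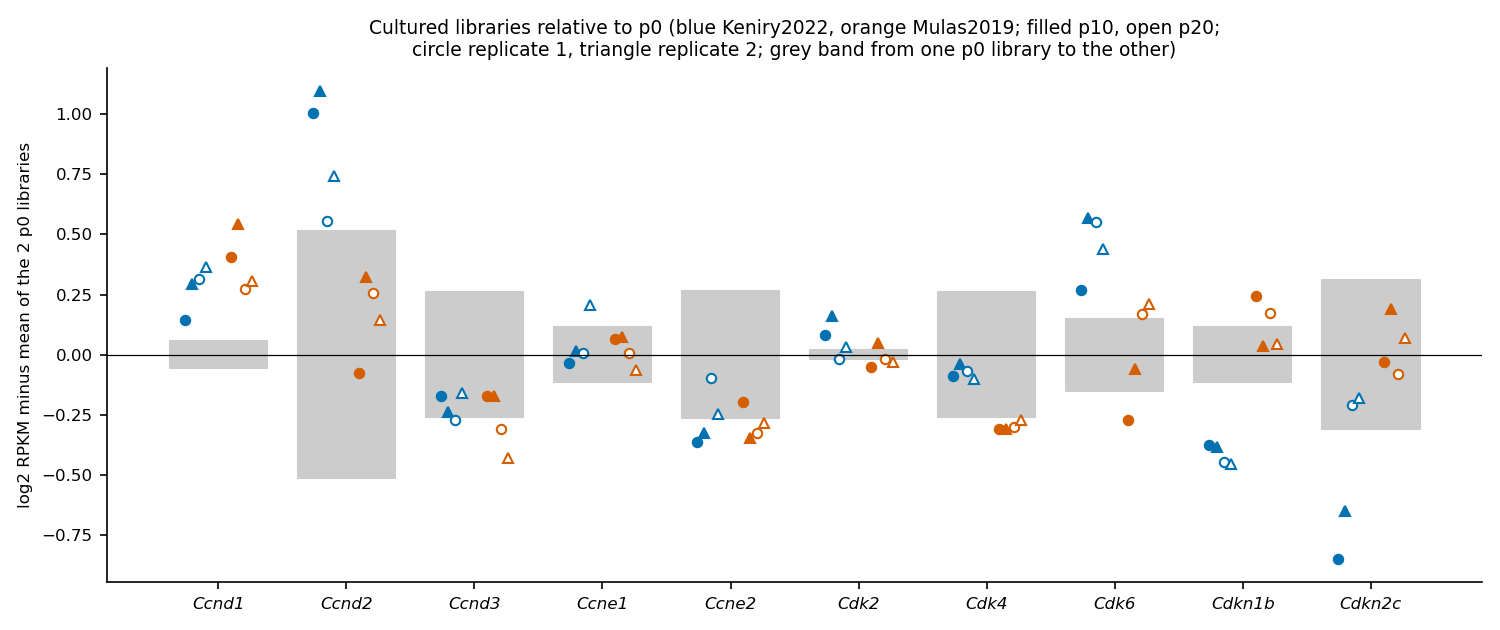
Log2 RPKM of each cultured library minus the mean of the 2 p0 libraries (y axis) for each gene (x axis), in blue for Keniry2022 and orange for Mulas2019, filled at p10 and open at p20, with a grey band between the p0 libraries. The 4 Keniry2022 libraries lay below the band for Cdkn1b and above it for Cdk6, and the libraries of both methods lay above it for Ccnd1.

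The other genes of the G1/S pathway were taken from lists. Of 9 genes of the SCF ligase and of cyclin or p27 turnover, 8 were tested, 5 were higher under Keniry2022 and none was lower. Among all features tested, 25.9% were called higher and 25.5% lower. Skp2, the F-box protein that targets p27, was 3.65 ± 0.0315 against 3.25 ± 0.0649 log2 RPKM (SD, n = 4; difference 0.41, adjusted p = 0.000115, limma). Cks1b, its cofactor for p27, was 6.49 ± 0.0714 against 6.10 ± 0.162 (0.38, adjusted p = 0.00175). The scaffold Cul1 (0.25), the RING subunit Rbx1 (0.28) and the adaptor Skp1a (0.19) were also higher, and the median of the list was 0.22. Under quantile normalisation 4 were higher and none lower, and in the model of 5 groups 2 and none. In that model Cks1b (adjusted p = 0.084, limma), Rbx1 (adjusted p = 0.136) and Skp1a (adjusted p = 0.149) lost their calls. Skp1a also lost its call with no filter (adjusted p = 0.0825, limma) and with some single libraries left out. With a correction for exon length and GC, Rbx1 (0.12, adjusted p = 0.122, limma) and Skp1a (0.08, adjusted p = 0.309) lost their calls, and Fbxo31 and Ambra1 were called higher under that correction alone.

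Of 5 activators of the G1 kinases, 4 were higher and none lower, with a median of 0.21, beside 25.9% of all features called higher. Cdk7 (0.24), Ccnh (0.25) and Mnat1 (0.21) encode the CDK-activating kinase, and Cdc37 (0.19) encodes a chaperone of kinases. Cdc25a, the phosphatase that activates CDKs, did not pass (-0.06). In the model of 5 groups Cdk7 alone kept its call, and Cdc37 (adjusted p = 0.103), Ccnh (adjusted p = 0.121) and Mnat1 (adjusted p = 0.17) lost theirs (limma). The correction for exon length and GC brought Ccnh to 0.11 and Mnat1 to 0.05, neither called, and under quantile normalisation 3 activators were higher and 1 lower. Of the RB family, Rb1 (-0.28, adjusted p = 0.00203, limma) and Rbl1 (-0.32, adjusted p = 0.00145) were lower, and Rbl2 did not pass (-0.23), beside 25.5% of all features called lower. Rbl1 lost its call in the model of 5 groups (adjusted p = 0.0554). The row named Rb1 has the feature name Rcbtb2 beside it in the deposited table, and was taken by its name. Of the other 5 CDK inhibitors, Cdkn1c, which encodes p57, was higher (0.48, adjusted p = 0.0472, limma) and the rest did not pass. That is 20.0% of the list, beside 51.5% of all features called in either direction. Cdkn1a was -0.22 (adjusted p = 0.055, limma), Cdkn2a -0.21 (adjusted p = 0.162), Cdkn2d -0.05 and Cdkn2b 0.04. Cdkn1c had 46 to 207 reads per library. Cdkn1c held its call in 10 of 19 alternatives.

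The E2F and DP factors, which carry the signal from RB to S phase genes, had members on both sides. E2f1 (-0.19), E2f3 (-0.25) and E2f7 (-0.26) were lower under Keniry2022, and E2f2 (0.39) and Tfdp1 (0.13) were higher, of 10 tested. E2f7 was called under 7 of 19 alternatives and Tfdp1 under 9 of 20. Of 26 E2F targets of G1/S, 15 were higher and none lower, that is 57.7% of the list. In either direction 51.5% of all features were called, and 25.9% were called higher. Gins1 (0.41, adjusted p = 0.000134, limma), Pola1 (0.31), Orc1 (0.28) and Mcm7 (0.22), which act in DNA replication, had the smallest p of the list. The direction of this list turned on the scaling, since under quantile normalisation 7 were higher and 3 lower, with the median at 0.01 in place of 0.12. Of the 5 cyclins and kinase of later phases, Ccna2 (0.17), Ccnb1 (0.13) and Cdk1 (0.17) were higher, whereas under quantile normalisation none was higher and 2 were lower. Called higher in 5 of 8 and 4 of 5 tested genes, the turnover and activator lists stood beside 25.9% of all features in that direction, although with the correction for exon length and GC 4 of these 9 calls were lost, as given above. These counts were not tested.

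**Figure D4:**
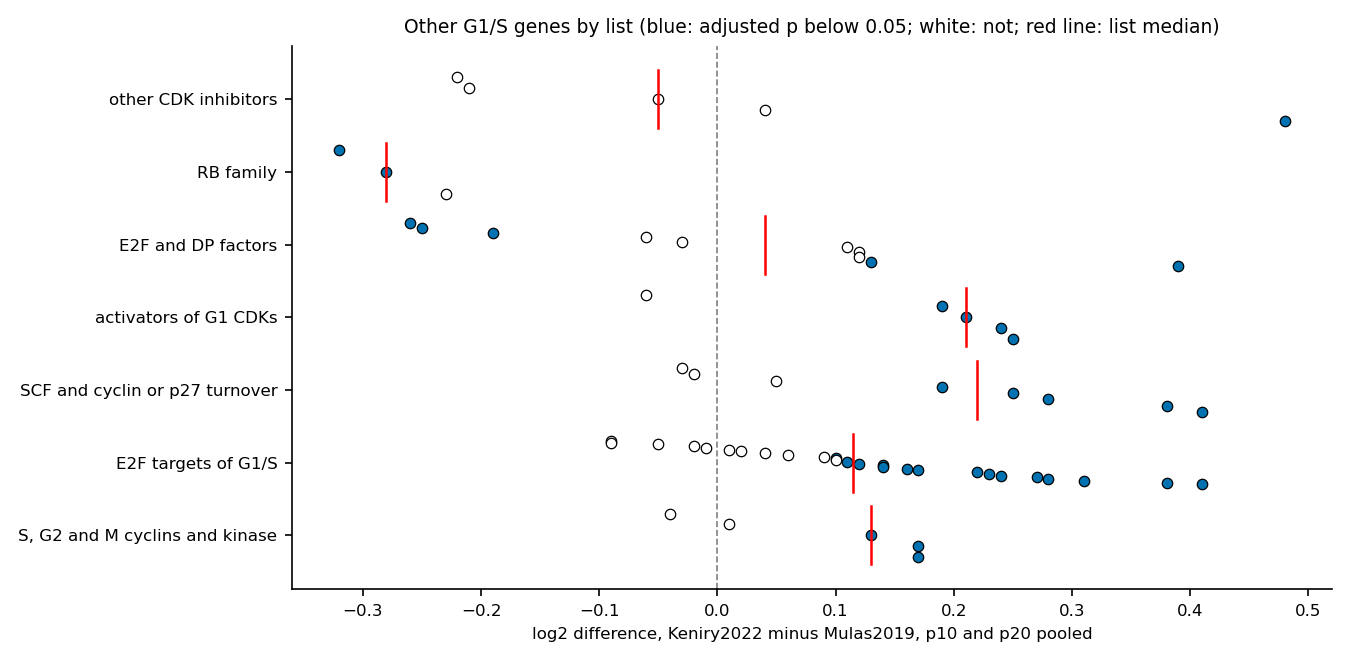
Log2 difference of Keniry2022 minus Mulas2019 for pooled libraries (x axis) of the tested genes of 7 lists (y axis), blue with adjusted p under 0.05 and white otherwise, with a red line at the list median. Called genes of the turnover and activator lists lay between 0.19 and 0.41, those of the RB family at -0.32 and -0.28, and the E2F and DP list had called genes on both sides of 0.

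Set against p0, these lists had no call under Keniry2022, where 0.727% of all features were called. The list medians under Keniry2022 and Mulas2019 were -0.47 and -0.38 for the other CDK inhibitors and -0.27 and -0.28 for the later phases. They were 0.19 and 0.12 for the E2F and DP factors and 0.17 and 0.40 for the RB family. For activators they were -0.13 and -0.36, for turnover -0.00 and -0.21, and for E2F targets -0.03 and -0.07. Under Mulas2019, 2 of the RB family were higher and none lower, 1 of the turnover list was higher and 4 lower, 1 activator was higher and 3 lower, and 2 E2F targets were higher and 8 lower, where 44.1% of all features were called. Of the 5 other CDK inhibitors, 1 was higher and 3 lower. Of the 10 E2F and DP factors 2 were higher and 1 lower, and of the 5 genes of later phases none was higher and 3 lower. Cdkn1c, called higher under Keniry2022 than under Mulas2019, was 2.00 and 1.99 log2 RPKM at p0. Its means under Keniry2022 (0.90) and Mulas2019 (0.42) were both below these values. The 10 called E2F targets are 38.5% of the list. Under quantile normalisation 8 E2F targets were higher and 6 lower, with the median at 0.10 in place of -0.07, 1 of the RB family was higher, and 1 of the turnover list was higher and 2 lower. The p0 libraries are shared by both comparisons.

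Ccnd2 and Cdkn2c were the only members that spanned at least 1 log2 unit over the 10 libraries (1.60 and 1.17), and the features most like them were sought among 8382 features with a mean log2 RPKM of at least 2. For Ccnd2 these were Rpl24 (Pearson r = 0.972 over 10 libraries), Nom1 (0.964) and Mitf (0.962). For Cdkn2c they were Anxa2 (0.874), Vat1 (0.869) and Sbk1 (0.868). The libraries are shared by all these values, the 2 members have few reads, and the correlations are a description.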

How the data were processed

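RNA-seq libraries from male mESCs had been prepared with a TruSeq RNA kit and sequenced on a NextSeq500 by the authors, who describe alignment with HISAT2 to mm10 and counting in SeqMonk. Per the labels, the processing notes name bcl2fastq and TopHat2 2.0.12, so which aligner made the table is unclear. Strand setting, annotation release and handling of multi-mapping reads were found in neither source. The table deposited by the authors holds 25965 features and 10 libraries as log2 values. It is named as log CPM, but its values are log2 RPKM, with 0 reads entered as 0.9 reads. Whole reads were recovered from these values, and 100.0% of the values with a length came out whole within 0.1 reads (98.69% within 0.02), where the length of 7867 features was itself searched for such a fit. On these reads voom called 6047 features between pooled methods. The feature lengths are the authors', so levels between genes depend on them. All columns were used.

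Features with a log2 value above 0 in at least 50% of the libraries of a fit were tested with limma 3.58.1 (R 4.3.3) on the log2 values with an intensity trend, two-sided, and p-values were adjusted by Benjamini-Hochberg over all features tested, with 0.05 as the threshold. Pooled methods (4 libraries each) were fitted alone without a block, as the study had pooled them, and the other comparisons in a model of 10 libraries and 5 groups. The study used voom on counts. It is an alternative here because the deposited values are log2. A single gene was also compared by the exact permutation test, whose smallest p is 0.0286. Of the steps, only the limma fit of the pooled and p10 comparisons was tried on simulated data. Those data had independent noise, with neither the lines nor the wider p0 spread of the real libraries. Intervals on reads are exact Poisson at 95% and cover counting error only.

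The members, the lists and the tests were chosen with earlier results of these data known. From lists of up to 10 genes all called genes were named, and from longer lists the 4 with the smallest p. Features like a member were sought for members spanning at least 1 log2 unit, 3 for each. Alternatives were quantile normalisation, median centring, other filters, a pseudocount of 1 RPKM, library quality weights, voom on the recovered reads, a correction for exon length and GC, the replicate block, other models and each library left out. Positions are those of the deposited values on mm10, exon lengths and overlaps are from GENCODE, and promoters from RefSeq on GRCm38.p6 (7 of 10 members matched). Analyses used Python 3.11.15.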

Additional observations from a re-analysis of the deposited data

Results flagged for a closer look

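No member had a library far from the other 3 of its method. Among 68 groups of 4 libraries examined, 4 genes of the lists did, where chance flags about 1 in 20 groups. In E2f2, replicate 1 of Mulas2019 p20 was 1.42 log2 RPKM and the other Mulas2019 libraries were 1.21 to 1.23. In Skp2, the same library was 3.15 and the others 3.27 to 3.28. In Cks1b, replicate 2 of Mulas2019 p20 was 6.35 and the others 6.01 to 6.04. In Cul1, replicate 2 of Keniry2022 p10 was 5.74 and the others 5.72 when rounded.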

How the results depend on the processing

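Of 1593 values of members under alternatives, 1456 kept their direction and side of the threshold, 38 lost a call, 49 gained one and 50 changed sign. For the pooled methods, 4 members were called, 2 once quantiles were equalised, 2 when all 5 groups shared a model, and 3 to 4 with a library left out. At p10, 1 was called in the main fit, 3 with quantile normalisation, 2 with median centring, 0 with no filter, 5 with quality weights, 2 with voom, 5 in a model of the 8 cultured libraries, 2 with a crossed block, and 0 to 5 with a library left out. At p20, 0 were called, 1 with a pseudocount, 2 with quality weights, 1 with voom, 2 in the model of 8 libraries, and 0 to 2 with a library left out. For matched days, 2 were called, 1 with the filter above 2, 1 with no filter, and 0 to 3 with a library left out. Against p0, 0 were called under Keniry2022 (0 to 6 with a library left out) and 1 under Mulas2019 (0 with quality weights, 1 to 5 with a library left out). One value that changed sign passed the test, Cdk4 of Keniry2022 against p0 without p0 replicate 1 (0.18), and the others were uncalled in both fits. Under quantile normalisation the pooled differences were -0.10 for Ccnd3, -0.07 for Ccne1, -0.02 for Cdk2 and -0.00 for Tfdp1, which lost its call. At p20 they were -0.02 for Ccnd1, -0.02 for Ccnd3, -0.07 for Cdk2 and 0.04 for Cdkn2c, and for matched days -0.05 for Ccne1 and -0.09 for Cdk2. Against p0 they were 0.14 for Cdk4 under Keniry2022, and 0.08 for Ccnd3, 0.17 for Cdk2, 0.08 for Cdk4, -0.14 for Cdk6 and -0.21 for Cdkn2c under Mulas2019. With median centring, Cdk2 was -0.00 for matched days, and Ccne1 was -0.03, Cdk6 -0.04 and Cdkn2c -0.01 for Mulas2019 against p0. With the correction for exon length and GC, Ccne2 was -0.13 between pooled methods. With a library left out, ranges that crossed or touched 0 were as follows. Between pooled methods they were -0.02 to 0.06 for Ccne1 and -0.03 to 0.06 for Ccne2, and at p10 -0.07 to 0.00 for Ccnd3. For matched days they were -0.09 to 0.01 for Ccnd3, -0.06 to 0.13 for Ccne1 and -0.05 to 0.05 for Cdk2. For Keniry2022 against p0 they were -0.47 to 0.06 for Ccnd3, -0.07 to 0.17 for Ccne1, -0.52 to 0.00 for Ccne2 and -0.33 to 0.18 for Cdk4. For Mulas2019 against p0 they were -0.09 to 0.14 for Ccne1, -0.04 to 0.01 for Cdk2, -0.14 to 0.16 for Cdk6 and -0.27 to 0.35 for Cdkn2c. Between passages of Keniry2022 they were -0.06 to 0.04 for Ccnd3, -0.04 to 0.01 for Cdk4 and -0.07 to 0.23 for Cdk6. Between passages of Mulas2019 they were -0.11 to 0.04 for Ccne2, -0.08 to 0.02 for Cdk2, -0.13 to 0.07 for Cdkn1b and -0.20 to 0.03 for Cdkn2c, and for the interaction -0.14 to 0.06 for Cdkn1b. The cause of these changes was not tested. Of all features, 6000 were called between pooled methods and 2225 in the model of 5 groups. The count ran from 0 to 5880 at p10 (986), 1 to 4280 at p20 (249), 0 to 5060 for matched days (743), 0 to 7864 for Keniry2022 against p0 (84) and 0 to 8510 for Mulas2019 against p0 (5093), with the main count in brackets. Between passages the count was 0 in the main fit and 0 to 40 under Keniry2022, 0 to 512 under Mulas2019 and 0 to 72 for the interaction over alternatives. No member was called between passages or for the interaction under any alternative. Members with few reads, Ccnd2 and Cdkn2c, are limited by counting.

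With the replicate block, 4 members were called between pooled methods, and 5749 of all features. At p10 the block kept the count at 1 but changed the gene, since Cdkn1b lost its call (adjusted p = 0.051, limma) and Cdkn2c gained one (adjusted p = 0.0478). The log2 difference of replicate 1 minus replicate 2 in each feature was correlated between groups, over 11561 features. Pearson r was 0.171 to 0.63 among groups other than Keniry2022 p20 and -0.118 to -0.698 with that group. The numbers therefore do not pair the samples throughout. The crossed pairing, chosen after seeing the data, called 5780 features, and at p10 it called Cdk6 (adjusted p = 0.0331, limma) and Cdkn2c (adjusted p = 0.0473) and not Cdkn1b (adjusted p = 0.05).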
